A study of Homo sapiens with 40 samples.

Results

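Polycomb repressive complex 2 (PRC2) is the enzyme complex that adds methyl groups to histone H3 at K27, a mark of silenced developmental genes in embryonic stem cells. Its activity rests on a catalytic subunit, EZH2 or its paralog EZH1, held by the core subunits SUZ12 and EED. Each core complex carries accessory subunits of 1 of 2 kinds: a Polycomb-like protein (MTF2, PHF19 or PHF1) in PRC2.1, or JARID2 with AEBP2 in PRC2.2. UTX (encoded by KDM6A) removes the same methyl groups, and UTY is its paralog with little such activity, so PRC2 and UTX act on H3K27 in opposite directions. The 9 genes EZH1, EZH2, SUZ12, EED, JARID2, MTF2, PHF19, PHF1 and AEBP2 were taken by name, as the catalytic, core and main accessory subunits, out of 60651 genes in the deposited count tables. All 9 were listed in each of the 5 sets of libraries, none had a 0, and all passed each filter on low values.

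The RNA of 40 libraries in 20 groups of 2 was sequenced from established human embryonic stem cell lines, SEES3 and H9. Undifferentiated SEES3 cells were double knockout for UTX and UTY (DKO) or UTX knockout (UTXKO), with a shared wild type (WT), or UTY knockout (UTYKO), with a wild type of its own (UTYKO control). Undifferentiated H9 cells were UTXKO, in sets named 3 and 4, or WT. H9 lacks UTY, so UTXKO leaves neither paralog there, whereas UTXKO in SEES3 leaves UTY. Endoderm (Endo), mesoderm (Meso) and ectoderm (Ecto) cultures of SEES3 were DKO, UTX knockout (XKO), UTY knockout (YKO) or WT. No other allele or agent is named; the labels do not say how the genes were disrupted, whether a line is 1 clone, or how the cultures were differentiated, and they call the cell type pluripotent stem cells throughout. Nothing in them says that the libraries of a group came from separate cultures, so each p-value reflects only how far these particular libraries spread, and that spread may be technical.

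The undifferentiated SEES3 libraries held 5781357 to 14973722 counts, and the fewest counts of any of the 9 genes in a library was 94. Their levels are given as CPM (counts scaled to a library total of 1000000). The other tables hold TPM (transcript abundance per length, scaled to a total of 1000000), with depth unknown. KDM6A RNA was present in every knockout library, at 78.2 to 82.3 CPM in DKO and 88.2 to 106 CPM in UTXKO, against 85.8 to 98.2 CPM in WT, so its gene-level value does not check the labels, although it was lower in DKO (log2 -0.24, adjusted p = 0.0137, edgeR). UTY RNA was higher in all 4 undifferentiated libraries labelled DKO or UTYKO than in their wild types, so the gene-level RNA of neither target shows its loss, and every direction given here rests on the labels. The summed level of 6 endoderm markers was 31196 to 31432 TPM in Endo WT, 428 to 491 TPM in Meso WT and 26.1 to 38.6 TPM in Ecto WT. The summed level of 6 mesoderm markers was 3627 to 3830 TPM in Meso WT, 2424 to 2485 TPM in Endo WT and 39.0 to 48.9 TPM in Ecto WT. The summed level of 6 neural markers was 1358 to 1359 TPM in Ecto WT, 658 to 713 TPM in Endo WT and 388 to 398 TPM in Meso WT. The tables were normalised separately, so tests were made only within a table.

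EZH2 and EZH1, which encode alternative catalytic subunits, are shown here by their promoters. The sequences run from 130 bases before to 20 bases after the RefSeq start (RefSeq, GRCh38.p14, minus strand for both genes), at chr7:148884272-148884421 for EZH2 and chr17:42745021-42745170 for EZH1. Capitals mark CCAAT, read on either strand (ATTGG on the other), and the E2F-like letters TTTGGCGC.
EZH2: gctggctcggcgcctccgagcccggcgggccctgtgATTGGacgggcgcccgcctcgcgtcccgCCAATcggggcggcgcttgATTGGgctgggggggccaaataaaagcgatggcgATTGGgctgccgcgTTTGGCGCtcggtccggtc
EZH1: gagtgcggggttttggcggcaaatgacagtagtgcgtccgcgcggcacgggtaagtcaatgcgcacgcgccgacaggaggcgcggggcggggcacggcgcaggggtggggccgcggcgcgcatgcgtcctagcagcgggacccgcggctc
The EZH2 stretch held 4 CCAAT matches and 1 E2F-like match, which begins 2 bases into the transcript, and the EZH1 stretch held none of either. Over the whole 300-base promoters (250 bases before to 50 after the start), at least 1 of the E2F-like letters TTTCCCGC, TTTGGCGC and TTTCGCGC was found, on either strand, for EZH2, SUZ12 and MTF2, or 3 of 9 genes, and in 2.79% of 27305 RefSeq promoters. CCAAT was found for EZH2, SUZ12, EED, JARID2 and PHF19, or 5 of 9 genes, and in 35.7% of promoters. The GC box letters GGGCGG were found in 7 of 9 genes and in 44.6% of promoters. These are matches of letters, not measured binding sites.

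EZH2 was higher in the DKO than in its wild type in undifferentiated cells and in endoderm cultures, and was the 1 gene of the 9 called in more than 1 of these comparisons. Each knockout was tested against its own wild type across all genes, with edgeR's quasi-likelihood test for counts and limma for log2(TPM + 1), and a gene was called at a Benjamini-Hochberg adjusted p under 0.05. In undifferentiated DKO cells 3 of 9 genes were called, EZH2 higher and JARID2 and PHF19 lower, where 46.9% of all genes tested were called. At an unadjusted p under 0.05 there were 3 of 9, beside 53% of all genes. In UTXKO cells EZH2 was the 1 gene called, higher, where 12.5% of all genes were called. There 5 of 9 had an unadjusted p under 0.05, as did 27.1% of all genes. In UTYKO cells edgeR called 0 of 9 and DESeq2 called 0, where 0.606% of all genes were called, and 0 of 9 had an unadjusted p under 0.05, as did 5.95% of all genes. In Endo DKO 1 of 9 was called, EZH2, where 12.1% of all genes were called, and 3 of 9 had an unadjusted p under 0.05, as did 27.6%. In H9 UTXKO limma called 0 of 9, where 4.58% of all genes were called, and 3 of 9 had an unadjusted p under 0.05, as did 20.3% of all genes.

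In Meso DKO limma called 0 of 9 and 10.1% of all genes, and 1 of 9 had an unadjusted p under 0.05, as did 26.8% of all genes. In Ecto DKO limma called 0 of 9 and 8.03% of all genes, and 2 of 9 had an unadjusted p under 0.05, as did 23.7% of all genes. In the single knockouts of the cultures limma called 0 of 9 throughout. It called 0.0319% and 0.0255% of all genes in Endo XKO and Endo YKO, 0.0397% and 0.0132% in Meso XKO and Meso YKO, and 0.356% and 0.0842% in Ecto XKO and Ecto YKO. At an unadjusted p under 0.05 there were 2 of 9 in Endo XKO and 1 in Endo YKO, beside 7.86% and 12.6% of all genes. There were 1 of 9 in Meso XKO and 2 in Meso YKO, beside 10.7% and 24.2% of all genes, and 0 in both Ecto XKO and Ecto YKO, beside 8.82% and 9.17%. The median log2 fold change of the 9 genes was -0.07 in undifferentiated DKO and -0.09 in UTXKO, where that of all genes was 0.0037 and -0.0020. It was 0.13 in Endo DKO, 0.26 in Meso DKO and -0.22 in Ecto DKO, where that of all genes was 0.12, 0.21 and 0.08. In each of these DKO comparisons the number of the 9 genes called was near or below what the share over all genes gives. By calls the group as a whole did not stand apart there. In UTXKO the calls were also near that share, while the unadjusted count, 5 of 9, lay above its share of 27.1%. The single genes are described in turn.

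**Figure D1:**
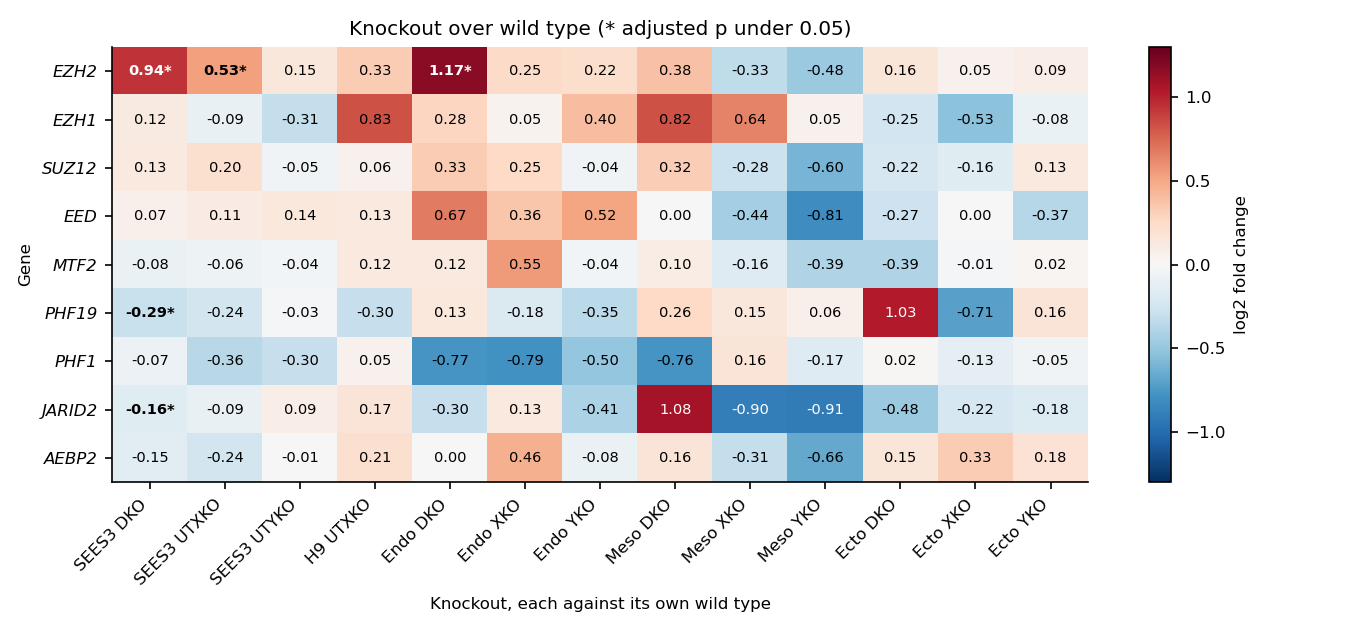
Log2 fold change of the 9 PRC2 genes (rows) in 13 knockouts, each against its own wild type (columns), from edgeR for undifferentiated SEES3 and limma on log2(TPM + 1) for the other columns; colour runs from blue (lower in the knockout) to red (higher), and an asterisk marks an adjusted p under 0.05. The 5 marked cells are EZH2 in SEES3 DKO (0.94), SEES3 UTXKO (0.53) and Endo DKO (1.17) and PHF19 (-0.29) and JARID2 (-0.16) in SEES3 DKO.

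The wild types set the levels from which these changes were measured. Per length, JARID2 was the highest of the 9 in undifferentiated SEES3 WT, at 78.7 ± 0.472 CPM per kb of exon (SD, n = 2), followed by MTF2 at 25.8 ± 0.600 and EZH2 at 15.4 ± 0.341 CPM per kb. EZH1 was the lowest, at 2.96 ± 0.186 CPM per kb, below EED at 5.01 ± 0.172. The libraries of neighbours in this order did not overlap, apart from those of PHF1 (8.27 ± 0.166 CPM per kb) and AEBP2 (8.11 ± 0.783). The SEES3 lengths merge all annotated exons of a gene and need not be those behind the TPM values. Orders and ratios per length are therefore not strictly comparable between SEES3 and the other tables. H9 WT had the same first gene as SEES3 WT, JARID2 at 293 and 273 TPM, and the same last, EZH1 at 8.74 ± 2.26 TPM, with EZH2 second at 114 ± 2.71 TPM. In Endo WT JARID2 was first at 168 ± 13.1 TPM, and the libraries of EZH2 (79.8 ± 10.8 TPM) and MTF2 (77.1 ± 2.29 TPM) overlapped. EZH2 was first in Meso WT (122 ± 19.5 TPM) and Ecto WT (206 ± 34.1 TPM), where JARID2 stood at 52.8 ± 13.5 TPM and 138 ± 10.9 TPM. EED had the lowest mean in Endo WT (11.5 ± 1.26 TPM), where its libraries overlapped those of EZH1 (14.7 ± 6.81 TPM), and PHF19 in Ecto WT (13.6 ± 4.95 TPM).

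**Figure D2:**
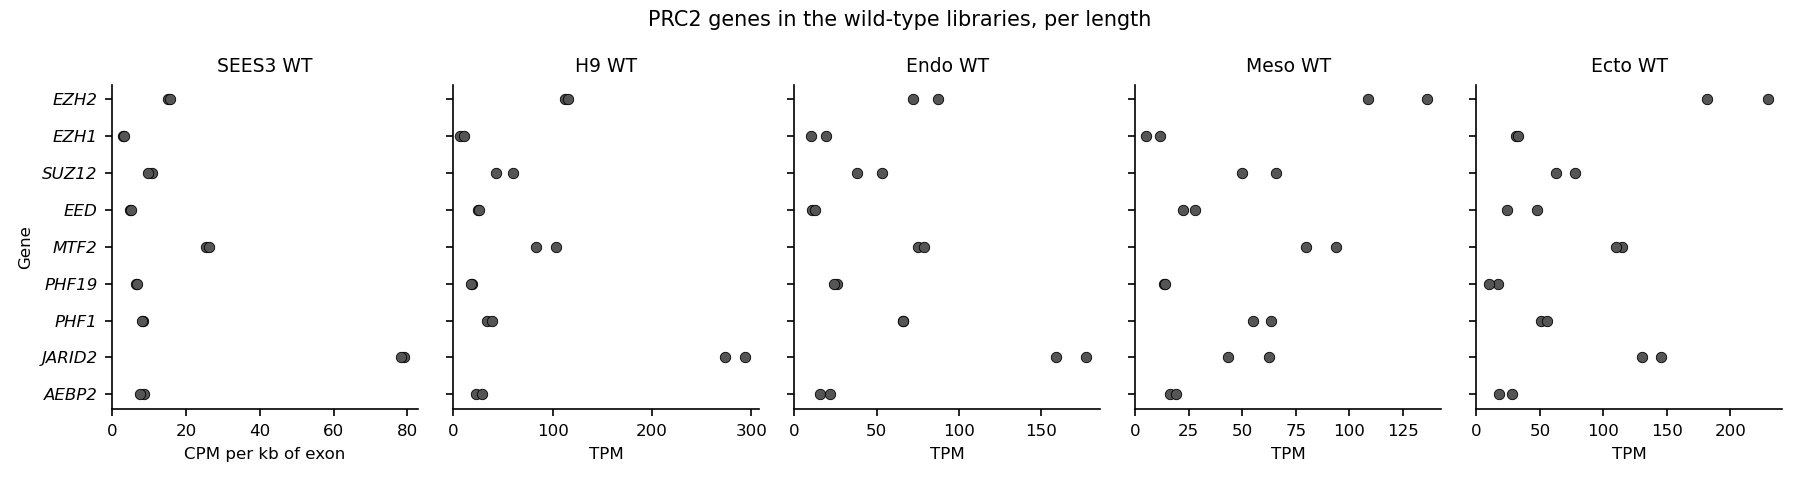
Level per length of each PRC2 gene in the 2 wild-type libraries of each setting (points), as CPM per kb of exon for undifferentiated SEES3 and TPM elsewhere; the axes differ between panels. JARID2 is farthest right in SEES3, H9 and Endo and EZH2 in Meso and Ecto, and EZH1 is lowest in SEES3, H9 and Meso.

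EZH2, the catalytic subunit of dividing cells, lies at chr7:148807383-148884321 on the minus strand (GENCODE v29, GRCh38), and EZH1 at chr17:42700275-42745049 on the same strand. EZH2 had 132 and 146 CPM in undifferentiated DKO libraries and 98.3 and 103 CPM in UTXKO libraries, against 68.5 and 70.7 CPM in WT libraries. The 3 groups did not overlap. The log2 fold change was 0.94 ± 0.07 (SE) in DKO against WT (adjusted p = 7.04e-10, edgeR) and 0.53 ± 0.09 in UTXKO against WT (adjusted p = 0.000179), and these comparisons share the WT libraries. DKO against UTXKO gave 0.44 ± 0.08 (adjusted p = 7.26e-05), in a fit where 2 of 9 genes (EZH2 and PHF1) and 34.9% of all genes were called. Per length EZH2 reached 30.7 ± 2.07 CPM per kb in DKO, where its libraries lay above those of MTF2 (25.3 ± 0.331), and 15.4 ± 0.341 CPM per kb in WT, where they lay below those of MTF2 (25.8 ± 0.600).

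Other markers differed between the same libraries, in a DKO against WT fit that called 46.9% of all genes. The 6 neural markers summed to 1260 to 1290 CPM in DKO, against 579 to 595 CPM in WT, with 4 of 6 higher and 1 lower by the test. The 7 pluripotency markers summed to 4338 to 4342 CPM in DKO, against 4976 to 5233 CPM in WT, with 5 of 7 lower and 1 higher. The 6 stromal markers summed to 156 to 169 CPM in DKO, against 169 to 170 CPM in WT, with 3 of 6 higher and 2 lower. COL3A1, LUM and DCN were at 0 in both WT libraries, and none of the 6 was at 0 in DKO. The part of these in the EZH2 difference was not tested.

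The UTYKO and its control stood at another level. EZH2 had 111 CPM in each of the UTYKO libraries, against 103 and 97.3 CPM in UTYKO control libraries, a log2 fold change of 0.15 with a 95% interval of -0.19 to 0.48 (adjusted p = 1.00, edgeR). Both control libraries were above both WT libraries, although both groups are wild-type SEES3. UTYKO control against WT gave a log2 fold change of 0.55 ± 0.11 (adjusted p = 0.00167), with 2 of 9 genes and 19.1% of all genes called, and a call also for AEBP2 (-0.45 ± 0.13, adjusted p = 0.0237), which was lost without WT replicate 1 (0.197) or WT replicate 2 (0.0712). The DKO and UTXKO were therefore also set against the other wild type, the UTYKO control. EZH2 in DKO remained higher, by 0.43 (95% interval 0.20 to 0.65, adjusted p = 0.00424), and against both wild types pooled by 0.67 (adjusted p = 0.00718). EZH2 in UTXKO did not pass against the UTYKO control, with a log2 difference of -0.0093 (95% interval -0.24 to 0.22, adjusted p = 0.976), nor against both pooled, 0.23 (adjusted p = 0.797). EZH2 in UTYKO set against WT was 0.70 (adjusted p = 0.000248). What sets the wild types apart was not tested.

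**Figure D3:**
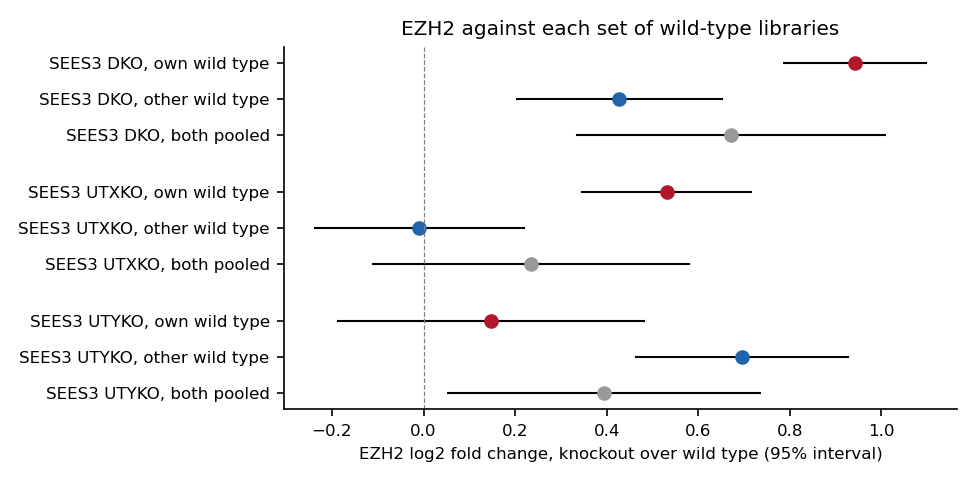
EZH2 log2 fold change (points) with its 95% interval (lines) in 3 undifferentiated knockouts, against their own wild type, the other wild type or both pooled; the dashed line is no difference. The DKO intervals all lie above 0, the UTXKO interval against the other wild type spans 0 (-0.24 to 0.22), and the UTYKO interval lies above 0 against the other wild type (0.46 to 0.93) and spans 0 against its own (-0.19 to 0.48).

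In the cultures EZH2 was high in the DKO of 1 of the 3 germ layers by the test. Endo DKO libraries had 187 and 174 TPM, Endo XKO libraries 94.5 and 95.2 TPM and Endo YKO libraries 88.3 and 97.7 TPM, against 87.4 and 72.2 TPM in Endo WT libraries. The DKO libraries lay above all 6 others, and the single knockouts lay just above WT without overlap. The log2 fold change in Endo DKO was 1.17 ± 0.14 (adjusted p = 0.00222, limma) against WT, where the median of all genes was 0.12, and 0.25 ± 0.14 and 0.22 ± 0.14 in Endo XKO and Endo YKO (adjusted p = 0.730 and 0.571). Endo DKO was also above XKO by 0.92 (adjusted p = 0.0065) and above YKO by 0.95 (adjusted p = 0.00677), in contrasts that called 10.9% and 11.1% of all genes and, among the 9, EZH2 alone.

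Other markers moved with EZH2 in Endo DKO. The 6 endoderm markers summed to 8653 to 9352 TPM in Endo DKO, against 31196 to 31432 TPM in Endo WT, and 7 pluripotency markers to 4112 to 4124 TPM, against 6504 to 6876 TPM. The 6 neural markers summed to 1717 to 1747 TPM in Endo DKO, against 658 to 713 TPM in Endo WT. Replication and division genes, 16 in all, summed to 4729 to 4734 TPM in Endo DKO, against 3639 to 3771 TPM in Endo WT. The part of these in the EZH2 difference was not tested, and in bulk RNA a change in the share of a cell type and a change of RNA per cell cannot be told apart.

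In mesoderm EZH2 had 168 and 151 TPM in DKO libraries, 92.6 and 100.5 TPM in XKO libraries and 106 and 71.2 TPM in YKO libraries, against 109 and 136 TPM in WT libraries. The DKO libraries lay above WT and the single knockouts below it. The DKO difference from WT, 0.38 with a 95% interval of -0.14 to 0.91, did not pass (adjusted p = 0.321), where the median of all genes was 0.21. Meso DKO was above YKO by 0.86 (adjusted p = 0.0240), in a contrast with a median of 0.55 over all genes, of which 33.8% were called against 3 of the 9 (EZH2, SUZ12 and JARID2), and above XKO by 0.72 (adjusted p = 0.0566), where the median was 0.42 and 22.6% were called against 1 of the 9 (JARID2). In ectoderm EZH2 was high in every genotype, with 223 and 233 TPM in DKO, 226 and 198 TPM in XKO and 196 and 241 TPM in YKO, against 230 and 181 TPM in WT libraries. All 3 knockouts overlapped WT, and the DKO difference from WT had a 95% interval of -0.22 to 0.53. In H9, the UTXKO libraries had 143 and 145 TPM in set 3 and 157 and 130 TPM in set 4, against 112 and 116 TPM in WT. All 4 UTXKO libraries were above WT, with a log2 fold change of 0.33 ± 0.09 that missed the threshold (adjusted p = 0.0764, limma).

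**Figure D4:**
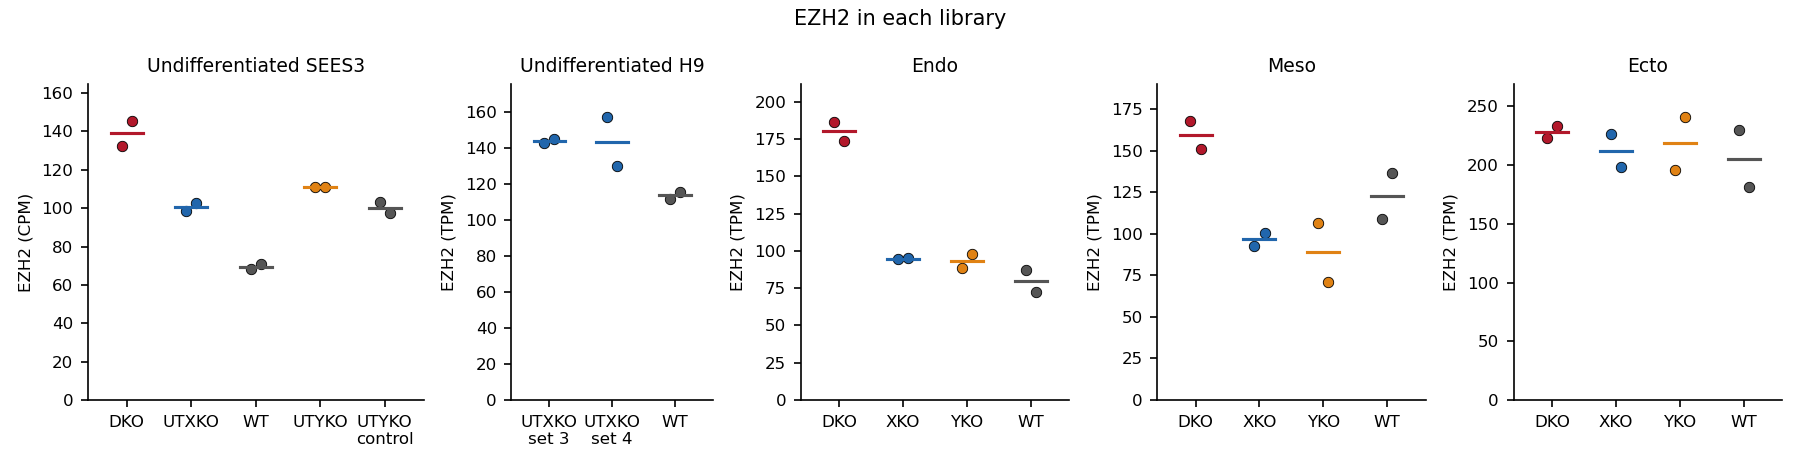
EZH2 in each library (points) and the group mean (short lines), as CPM in undifferentiated SEES3 and TPM elsewhere; knockouts are coloured and wild types grey, with UTYKO beside its own control. DKO libraries lie above all others in SEES3 (132 and 146 CPM) and in Endo (187 and 174 TPM), and the UTYKO control lies at the level of UTXKO.

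EZH1, the catalytic paralog known from cells that divide little, was called in no knockout. It had 24.9 and 22.0 CPM in undifferentiated DKO and 19.5 CPM in each UTXKO library, against 19.8 and 21.6 CPM in WT, with a 95% interval of -0.13 to 0.37 for the log2 change in DKO. In H9 it had 13.2 and 14.4 TPM in UTXKO set 3 and 18.8 and 18.6 TPM in set 4, against 7.14 and 10.3 TPM in WT. All 4 libraries were above WT, and the log2 fold change of 0.83 ± 0.24 did not pass (adjusted p = 0.105). In Meso DKO EZH1 had 16.7 and 11.9 TPM, against 4.88 and 11.4 TPM in WT, also above WT without overlap and also short of the threshold (0.82 ± 0.49, adjusted p = 0.327). The ratio of EZH2 to EZH1 per length was 8.22 and 10.2 in undifferentiated DKO and 7.81 and 8.14 in UTXKO, against 5.36 and 5.06 in WT, and 10.6 and 9.53 in UTYKO, against 7.03 and 7.46 in its control. In Endo it was 9.34 and 11.8 in DKO, against 4.47 and 7.29 in WT, without overlap. In H9 it was lower in UTXKO, with 10.9 and 10.1 in set 3 and 8.37 and 6.99 in set 4, against 15.7 and 11.2 in WT. In Meso it was 10.02 and 12.7 in DKO and 5.67 and 10.8 in XKO, against 22.3 and 11.9 in WT, with DKO overlapping WT and XKO below it. In Ecto it was 6.73 and 10.7 in DKO, against 7.31 and 5.53 in WT, with overlap, and 8.96 and 10.4 in XKO, above WT without overlap. Ecto YKO (5.22 and 9.90), Endo XKO (8.11 and 5.32), Endo YKO (4.80 and 5.13) and Meso YKO (13.2 and 9.27) each overlapped their WT.

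The core subunits SUZ12, which binds the catalytic subunit and the accessory proteins, and EED, which reads the methyl mark, were called in no knockout against its own wild type. SUZ12 had 74.7 and 77.3 CPM in undifferentiated DKO and 78.7 and 75.7 CPM in UTXKO, against 71.2 and 63.8 CPM in WT. Both knockouts were slightly above WT, with 95% intervals of the log2 change of -0.03 to 0.29 and 0.01 to 0.39 (adjusted p = 0.185 and 0.152). EED had 36.2 and 40.6 CPM in DKO, against 34.3 and 36.0 CPM in WT, with an interval of -0.14 to 0.27. In Endo DKO EED had 18.8 TPM in each library, against 10.6 and 12.3 TPM in WT, without overlap, and its log2 change of 0.67 ± 0.28 did not pass (adjusted p = 0.168). SUZ12 in mesoderm had 69.4 and 74.4 TPM in DKO and 40.6 and 34.4 TPM in YKO, against 50.01 and 65.6 TPM in WT, and DKO against YKO was called (0.92, adjusted p = 0.0206, with the median of all genes at 0.55). SUZ12P1, a transcribed pseudogene copy of SUZ12, had reads of its own, at 15.1 ± 1.76 CPM in DKO and 10.8 ± 2.33 CPM in WT, and reads that fit both copies may have been split, so SUZ12 values carry that uncertainty.

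The Polycomb-like subunits of PRC2.1 recruit PRC2 to unmethylated CpG-rich DNA. MTF2, the main one in stem cells, had 148 and 151 CPM in DKO and 145 and 147 CPM in UTXKO, against 150.2 and 155 CPM in WT, and 144 and 124 CPM in UTYKO, against 158 and 116 CPM in its control. Its log2 change in DKO had a 95% interval of -0.22 to 0.05. In Endo XKO MTF2 had 115 and 112 TPM, against 75.4 and 78.7 TPM in WT, without overlap, and a log2 change of 0.55 ± 0.14 that did not pass over all genes (adjusted p = 0.344). Endo DKO (77.8 and 90.7 TPM) and Endo YKO (77.9 and 72.4 TPM) overlapped WT.

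PHF19 had 37.2 and 38.2 CPM in undifferentiated DKO and 38.9 and 36.3 CPM in UTXKO, against 42.6 and 45.8 CPM in WT. All 4 knockout libraries were below both WT libraries, and the gene fell in DKO by 0.29 on the log2 scale (SE 0.09, adjusted p = 0.0152, edgeR). DESeq2 did not call it (adjusted p = 0.224), and neither did edgeR without WT replicate 2 (adjusted p = 0.170), without DKO replicate 1 (0.0900) or without DKO replicate 2 (0.0502). In ectoderm the order was different, with PHF19 at 35.1 and 22.3 TPM in DKO, 6.86 and 8.54 TPM in XKO and 17.8 and 12.4 TPM in YKO, against 17.1 and 10.1 TPM in WT. The DKO libraries were above all others and the XKO libraries below all others. Ecto DKO against WT did not pass (1.03 ± 0.39, adjusted p = 0.159), and Ecto DKO against XKO did (1.74 ± 0.39, adjusted p = 0.0472), the 1 call among the 9 genes where 4.96% of all genes were called. Ecto DKO against YKO called 0 of 9 by limma, where 5.1% of all genes were called, and 0 of 9 had an unadjusted p under 0.05, as did 19.8% of all genes.

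PHF1, the third Polycomb-like gene, overlaps CUTA on the opposite strand, which had 10367 counts over the 10 libraries, against 2361 for PHF1. The kit kept strand per the labels, but whether the counting used it is not given in the sources used here, so PHF1 values are uncertain. PHF1 had 29.9 and 28.6 CPM in undifferentiated DKO and 23.3 and 23.0 CPM in UTXKO, against 30.2 and 29.3 CPM in WT. UTXKO was low, and DKO against UTXKO was called (0.31 ± 0.12, adjusted p = 0.0434), a call absent with DESeq2, without the low-count filter and without any 1 of the 4 libraries. CUTA was itself higher in DKO than in UTXKO (0.39 ± 0.08, adjusted p = 0.000324). In Endo PHF1 had 30.8 and 47.9 TPM in DKO, 39.6 and 36.1 TPM in XKO and 49.0 and 43.6 TPM in YKO, against 66.0 TPM in each WT library. All 6 knockout libraries were below WT, and no comparison passed (log2 -0.77 ± 0.23 in DKO, adjusted p = 0.069; -0.79 ± 0.23 in XKO, adjusted p = 0.423). In Meso PHF1 had 39.7 and 29.8 TPM in DKO, against 55.0 and 63.4 TPM in WT, without overlap (log2 -0.76 ± 0.35, adjusted p = 0.214). Quantile normalization gave -0.90 in Endo DKO (adjusted p = 0.0459) and -1.04 in Meso DKO (adjusted p = 0.0466), both past the threshold.

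JARID2, the PRC2.2 subunit that guides the complex in stem cells, lies at chr6:15246296-15522040 on the plus strand (GENCODE v29, GRCh38). It showed its widest range in mesoderm. It had 112 and 109 TPM in Meso DKO, 21.3 and 35.0 TPM in XKO and 27.9 and 26.6 TPM in YKO, against 62.3 and 43.2 TPM in WT. The DKO libraries were above WT and both single knockouts were below it, with no overlap between DKO, WT and the single knockouts together. DKO against WT was 1.08 ± 0.29 (adjusted p = 0.0547, limma), just short of the threshold, and passed when only these 4 libraries were fitted (adjusted p = 0.0252). The single knockouts gave -0.90 ± 0.29 in XKO (adjusted p = 0.404) and -0.91 ± 0.29 in YKO (adjusted p = 0.129), where the medians of all genes were -0.16 and -0.28. DKO was above XKO by 1.98 ± 0.29 (adjusted p = 0.00522) and above YKO by 1.99 ± 0.29 (adjusted p = 0.00426), where the medians of all genes were 0.42 and 0.55. Beside these, the neural markers summed to 710 to 716 TPM in Meso DKO, against 388 to 398 TPM in Meso WT, the mesoderm markers to 2746 to 2968 TPM, against 3627 to 3830 TPM, and the replication and division genes to 3532 to 3585 TPM, against 5131 to 5313 TPM, and their part in the JARID2 values was not tested.

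Elsewhere JARID2 in DKO lay below wild type. It had 439 and 436 CPM in undifferentiated DKO and 455 and 431 CPM in UTXKO, against 475 and 471 CPM in WT. The DKO libraries were below WT without overlap, and the gene fell by 0.16 on the log2 scale (SE 0.06, adjusted p = 0.0317, edgeR), a call that DESeq2 (adjusted p = 0.0565) and fits without DKO replicate 1 (0.174) or DKO replicate 2 (0.236) did not give. JARID2 had 134 and 138 TPM in Endo DKO, against 159 and 177 TPM in Endo WT, with a log2 change of -0.30 ± 0.14 (adjusted p = 0.224). It had 100.3 and 96.6 TPM in Ecto DKO, against 130.2 and 146 TPM in Ecto WT, with a log2 change of -0.48 ± 0.13 (adjusted p = 0.0659). Neither passed. In Ecto DKO, where 8.03% of all genes were called, the 6 neural markers summed to 3016 to 3354 TPM, against 1358 to 1359 TPM in WT. By the test 3 of them rose and 1 fell, with a median log2 change of 0.36. The 7 pluripotency markers summed to 2128 to 2308 TPM, against 5429 to 5521 TPM in WT, and 5 of the 6 tested fell. The 6 stromal markers summed to 435 to 637 TPM, against 25.6 to 30.2 TPM, and 3 of 6 rose. COL3A1, LUM, DCN and POSTN were at 0 in both WT libraries, and no stromal marker was at 0 in DKO. These moved with the JARID2 and PHF19 values there, and their part was not tested. In H9 JARID2 had 309 and 320.0 TPM in UTXKO set 3 and 315 and 326 TPM in set 4, against 293 and 273 TPM in WT, all 4 above WT, with a log2 change of 0.17 ± 0.06 (adjusted p = 0.148).

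**Figure D5:**
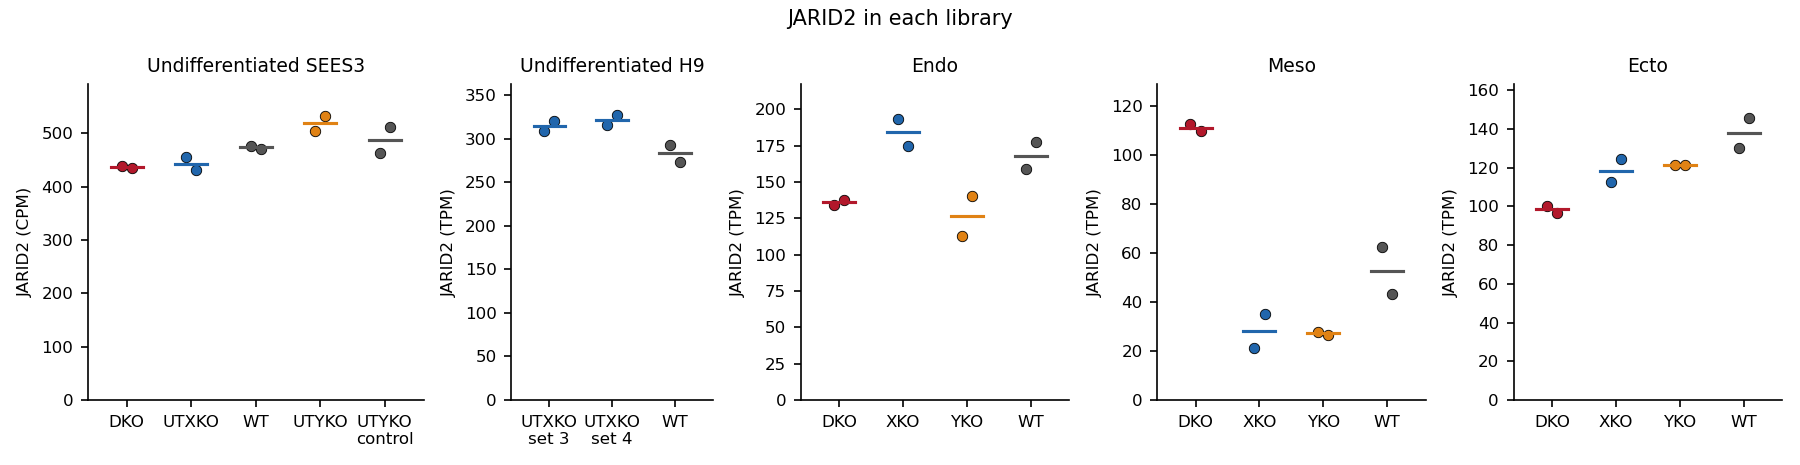
JARID2 in each library (points) and the group mean (short lines), as CPM in undifferentiated SEES3 and TPM elsewhere. In Meso the DKO libraries (112 and 109 TPM) lie above WT (62.3 and 43.2 TPM) and the single knockouts below it, whereas in Endo and Ecto the DKO libraries lie below WT. Endo YKO and both Ecto single knockouts also lie below their WT.

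AEBP2, which binds nucleosomes beside JARID2, was called in no knockout against its own wild type. It had 49.4 and 49.1 CPM in undifferentiated DKO and 40.5 and 49.0 CPM in UTXKO, against 56.9 and 49.6 CPM in WT, and 41.7 and 35.2 CPM in UTYKO, against 40.9 and 36.0 CPM in its control. The UTYKO and its control overlapped, and both lay below WT. In the cultures AEBP2 ranged from 7.13 TPM in a Meso YKO library to 33.5 TPM in an Ecto YKO library, and in each of the 3 layers the DKO and WT libraries overlapped.

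Beyond the 9 genes, 6 further PRC2 partners were read, of which 5 passed the filters and EZHIP, a PRC2 inhibitor that acts in gonads and some tumours, stayed at or under 0.467 CPM in undifferentiated SEES3. EPOP, a PRC2.1 partner that couples the complex to elongin, had 61.2 and 52.8 CPM in undifferentiated DKO and 36.2 and 30.9 CPM in UTXKO, against 26.0 and 22.7 CPM in WT. It rose by a log2 fold change of 1.20 ± 0.10 in DKO (adjusted p = 3.26e-09, edgeR) and 0.48 ± 0.13 in UTXKO (adjusted p = 0.0103), the UTXKO call being lost with DESeq2 (0.193), without WT replicate 2 (0.136) or without UTXKO replicate 1 (0.108). Against the UTYKO control, EPOP in DKO kept a difference of 1.16 (adjusted p = 2.84e-06), and in UTXKO 0.43 (adjusted p = 0.111). It rose in Endo DKO (55.4 and 46.8 TPM, against 24.3 and 22.8 TPM in WT, log2 1.08 ± 0.25, adjusted p = 0.0284, limma) and in Meso DKO (113 and 108 TPM, against 48.2 and 44.4 TPM in WT, log2 1.24 ± 0.18, adjusted p = 0.00689). Each of those calls was lost on leaving out any 1 of the 4 libraries (adjusted p from 0.0530 to 0.175). In Ecto DKO EPOP had 132 and 107 TPM, against 122 and 111 TPM in WT.

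The histone chaperones RBBP4 and RBBP7, which PRC2 shares with other complexes, moved in opposite directions in undifferentiated DKO. RBBP4 rose there to 255 and 243 CPM, against 205 and 195 CPM in WT (log2 0.27 ± 0.06, adjusted p = 0.00138), and RBBP7 fell to 180 and 188 CPM, against 203 and 213 CPM in WT (log2 -0.23 ± 0.07, adjusted p = 0.00654). Without DKO replicate 1 the adjusted p was 0.0549 for RBBP4 and 0.103 for RBBP7. Against the UTYKO control RBBP4 gave 0.25 (adjusted p = 0.0559) and RBBP7 -0.14 (adjusted p = 0.335), and the RBBP7 call was also lost against both wild types pooled (0.244) and in the joint fit of the 10 libraries (0.141). Neither was called in the DKO of a germ layer. LCOR and LCORL, which encode PRC2.1 partners, passed in none of the 3 undifferentiated knockouts against its own wild type. They differed between the wild types, with log2 changes of -0.53 and -0.82 in the UTYKO control against WT (adjusted p = 0.00686 and 0.00178), that of LCOR being lost without WT replicate 1 (0.0998). Set against the UTYKO control, LCOR and LCORL in DKO gave 0.58 and 0.91 (adjusted p = 0.00147 and 0.000216).

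EZH2 is known as a target of E2F factors in dividing cells, so 16 replication and division genes were read beside it. In undifferentiated DKO 8 rose and 1 fell, where 46.9% of all genes were called, in UTXKO 4 rose and 0 fell (12.5%), and in the UTYKO control against WT 6 rose and 1 fell (19.1%). Against the UTYKO control, in the joint fit of 10 libraries, 3 rose and 2 fell in DKO (30.8% of all genes called) and 0 rose and 1 fell in UTXKO (5.35%). MCM5, a helicase subunit of DNA replication, gave log2 changes of 0.20 in DKO and 0.33 in UTXKO against WT, and -0.58 and -0.48 against the UTYKO control in the joint fit (adjusted p = 0.000849 and 0.0238). The calls against WT (adjusted p = 0.0164 in DKO and 0.00663 in UTXKO) were lost in that joint fit (0.166 and 0.152) and without WT replicate 1 (0.0620 and 0.0764), and that in DKO also with DESeq2 (0.0607) and without DKO replicate 2 (0.267). In Endo DKO 7 rose and 0 fell (12.1% of all genes called), in Meso DKO 1 rose and 3 fell (10.1%), in Ecto DKO 0 rose and 2 fell (8.03%), and in H9 UTXKO 2 rose and 1 fell (4.58%). The summed level of 19 Polycomb target genes, several of them at 0 in both WT libraries, was 199 to 206 CPM in undifferentiated DKO and 40.5 to 46.7 CPM in UTXKO, against 34.1 to 38.0 CPM in WT. In the cultures, where 16 of them were listed, it was lower in each DKO, at 649 to 651 TPM in Endo DKO, against 782 to 837 TPM in Endo WT. It was 479 to 521 TPM in Meso DKO, against 929 to 965 TPM in Meso WT. In Ecto DKO it was 199 to 254 TPM, against 696 to 792 TPM in Ecto WT. These sums follow their most abundant genes, and single targets were mixed. In undifferentiated DKO 8 of the 11 tested rose and 2 fell (46.9% of all genes called). In Endo DKO 3 of 13 rose and 2 fell (12.1%), with 9 log2 changes above 0, 4 below and a median of 1.73. In Meso DKO 2 of 11 rose and 2 fell (10.1%, median -0.92). In Ecto DKO 2 of 10 rose and 3 fell (8.03%, median -0.04).

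Across the 10 undifferentiated SEES3 libraries, the genes most like EZH2 by Pearson correlation of log2 CPM, out of 11341 with a mean of at least 5 CPM, were SRSF6 (0.993), TSPYL4 (0.986), ATMIN (0.980), HNRNPDL (0.973) and C1orf198 (0.966). SRSF6, a splicing factor gene, averaged 190 CPM in DKO and 144 CPM in UTXKO, against 101 CPM in WT, and 155 CPM in UTYKO, against 142 CPM in its control. Among the other 8 PRC2 genes the correlation with EZH2 ran from -0.665 for PHF19 to 0.499 for EED. For EZH1 the genes most alike were CADM2 (0.903), ATG7 (0.887), NHS (0.887), LNP1 (0.865) and NUB1 (0.863). These values describe 10 libraries in 5 groups that share a cell line and, in part, a wild type.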

How the data were processed

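Per the labels, poly(A) RNA was sequenced from a strand-keeping kit. Per the submitters' processing notes, STAR, RSEM, featureCounts and edgeR were used with GRCh38 (hg38); no version or strand setting is given in the sources used here. The authors deposited raw counts per gene for undifferentiated SEES3 and TPM values (RSEM is named in the notes) for the cultures and H9. The H9 table has no 0 and a smallest value of 0.0112, and 12 further columns of per-sample values in it were not used. UTXKO and DKO tables hold identical WT columns.

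CPM was computed here from the deposited counts over the library total. Counts were tested with edgeR 4.0.16 (filterByExpr, TMM, quasi-likelihood) and log2(TPM + 1) with limma 3.58.1 (trend, genes with at least 1 TPM in at least 2 libraries), in R 4.3.3, with Benjamini-Hochberg adjustment over all genes tested. The H9 sets were fitted as 1 group of 4, so the H9 p-values take libraries of both sets as equal replicates. Set 3 alone against WT called 0.32% of all genes and set 4 alone 0.587%, beside 4.58% for both together. Both were run on simulated data. For counts the simulation used a fixed dispersion, which need not match the spread of these libraries. Standard errors for edgeR are the log2 fold change over the square root of F. DESeq2 1.42.0, no filter, a joint fit, the replicate block, single libraries left out, a pseudocount of 0.1, quantile normalization and, added after seeing the data, other wild types were the alternatives. Intervals are 95%. Replicates differed by more than counting noise, so none was merged. The chi-square per degree of freedom was 16.8 in the UTYKO control and 1.68 to 3.98 in the other undifferentiated SEES3 groups.

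The text names the 9 subunits whether or not called, up to 4 called genes of a list, and the 5 genes most correlated with EZH2 and with EZH1; the partners not called and MCM5 were named after their values were seen. The members and lists were chosen with earlier results of these data known. Positions are from GENCODE v29, promoters from RefSeq.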

Additional observations from a re-analysis of the deposited data

Results flagged for a closer look

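The differences given here are between effects of a knockout with the same label in 2 settings whose libraries all moved in opposite directions. The share of all genes that separated in this way is not given, and with 2 libraries a group such separation can arise without an effect. H9 lacks UTY, so its UTX knockout is not the same state as that in SEES3. The differences are log2 fold changes of the first setting minus the second. The tables were normalised separately, and the differences were not tested.

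For the double knockout, SUZ12 was above WT in undifferentiated SEES3, Endo and Meso and below it in Ecto, with differences from Ecto of 0.35, 0.55 and 0.54. JARID2 was below WT in undifferentiated SEES3 and Endo and above it in Meso, with differences of -1.24 and -1.38, and Meso minus Ecto was 1.56. PHF19 was below WT in undifferentiated SEES3 and above it in Meso and Ecto, with differences of -0.54 and -1.32. The median log2 change of all genes in Meso DKO was 0.21, and quantile normalization gave -0.09 for PHF19 there.

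For the UTX knockout, EZH1 was below WT in undifferentiated SEES3 and above it in H9, a difference of -0.92, and H9 minus Ecto was 1.36. EZH2 was above WT in undifferentiated SEES3, H9 and Endo and below it in Meso, with differences of 0.86, 0.66 and 0.59. JARID2 was below WT in undifferentiated SEES3 and above it in H9 (-0.26), and H9 minus Meso and H9 minus Ecto were 1.06 and 0.38. MTF2 was below WT in undifferentiated SEES3 and above it in Endo (-0.62). Set against the UTYKO control, undifferentiated UTXKO did not keep its direction for EZH2 (-0.0093) or MTF2 (0.08), and kept it for EZH1 and JARID2 (both -0.15). The median log2 change of all genes in Meso XKO was -0.16, and quantile normalization gave -0.25 for EZH2 and -0.70 for JARID2 there.

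For the UTY knockout, EZH2 was above its wild type in undifferentiated SEES3 and Endo and below it in Meso, with differences of 0.62 and 0.70. EED moved likewise, with 0.95 and 1.33. The median log2 change of all genes in Meso YKO was -0.28, and quantile normalization gave -0.29 for EZH2 and -0.40 for EED there.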

How the results depend on the processing

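EZH2 kept its direction and its call in undifferentiated DKO against WT in all 10 alternatives (log2 0.43 to 1.01) and in Endo DKO in all 8 (1.04 to 1.31). The share of all genes called also moved between settings and is given in brackets. Of the 9 genes, DKO against WT called 3 (46.9%). It called 1 with DESeq2 (11.9%), the joint fit (31.2%), the other wild type (30.8%) or both pooled (20.7%). UTXKO against WT called 1 (12.5%), 2 with the replicate block (16.3%), and 0 against the other wild type (5.35%) or both pooled (0.151%). UTYKO called 0 (0.606%), and 2 against the other wild type (16.8%). DKO against UTXKO called 2 (34.9%), and 1 with DESeq2 (8.59%), without the filter (14.8%) or in the joint fit (20.8%). UTYKO control against WT called 2 (19.1%), and 1 without the filter (7.98%) or with only its 4 libraries (11.5%). Endo DKO called 1 (12.1%), and 2 with quantile normalization (12.7%). Meso DKO called 0 (10.1%), and 1 with quantile normalization (PHF1, lower, 12.2%) or only its 4 libraries (JARID2, higher, 18%). Meso YKO called 0 (0.0132%). Leaving out a library also changed the counts in some of these comparisons, in fits that left 1 library in a group. The cause was not tested.

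Against the other wild type the direction reversed for EZH2 in UTXKO (-0.0093), LCORL in UTXKO (0.69) and UTYKO (-0.55), LCOR in UTYKO (-0.40) and MCM5 in UTXKO (-0.48), DKO (-0.58) and UTYKO (0.67). Against both pooled it reversed for MCM5 in UTXKO (-0.13) and DKO (-0.23). Among the 9 genes, of those called in neither fit, MTF2 in UTXKO and DKO (0.08 and 0.09), AEBP2 in UTXKO and DKO (0.21 and 0.32) and PHF1 in DKO (0.10) also moved from below WT to above the other wild type.

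Same-numbered libraries did not deviate together beyond r = 0.21 over 2 pairs, so the numbers are not shown to pair them; the replicate block changed the count for UTXKO against WT alone, to 2. No paired analysis was possible for H9 and the cultures because their columns carry no replicate number. The TPM tables carry no depth, and with 2 libraries a group a missed threshold does not show that levels were alike.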
